A study of Mus musculus with 4 samples.

Results

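The genes best known as tumour suppressors or oncogenes of melanoma, here the 9 genes Cdkn2a, Cdkn2b, Trp53, Cdkn1a, Mdm2, Rb1, Braf, Nras and Myc, were examined across a series of mouse melanoma lines. Their probes were taken by gene symbol, current or older. Of these 9 genes, 8 had a probe that carried their symbol, with 1 probe each, out of 14686 named genes and 33012 probes on the array. No probe was matched to Braf, which is not analysed here. The lines were cultured B16 melanoma cells of C57Bl6 origin in DMEM with fetal bovine serum, for at most 10 passages. The parental line B16 (B16F1 in the protocol) was compared with B16-RI, grown from lymph node metastases of B16F1 tumours after intradermal injection, and with 2 lines of a second injection round made with B16-RI cells, B16-RII from lymph node metastases and B16-RIIL from lung metastases. Every line therefore derives from B16, none was engineered, and the parental line had not been through a mouse in this study. Digoxigenin-labelled cRNA of each line was hybridised to an Applied Biosystems Mouse Genome Survey Microarray V2.0, and RNA of different culture passages of a line was pooled. The study made duplicate arrays, of which 1 per line is matched to a sample and analysed here. With 1 array per line there was no replicate error for any value, no test between lines was possible, and a difference between lines cannot be told apart from a difference between cultures or arrays. All comparisons with B16 share the same B16 array.

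The genes fall into a few connected circuits. Cdkn2a encodes, from separate start sites, the CDK4 and CDK6 inhibitor p16Ink4a and the Mdm2 inhibitor p19Arf, and the neighbouring gene Cdkn2b encodes the related inhibitor p15Ink4b. Both inhibitors keep Rb1, the retinoblastoma protein, in the form that holds E2F transcription factors inactive. Trp53 encodes p53, Mdm2 the ubiquitin ligase that degrades p53 and is itself a p53 target, and Cdkn1a the CDK inhibitor p21, the best known p53 target gene. Nras and Braf encode a small GTPase and a kinase at the head of the MAP kinase cascade that is mutated in most human melanomas, and Myc encodes a growth-promoting transcription factor. Loss of CDKN2A is among the most frequent lesions of human melanoma.

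The promoters of Cdkn2a and Cdkn1a are shown because these genes gave the differences described below and each has 2 annotated start sites. Which of the transcripts a probe reads is not known here. The sequences are those of RefSeq, build GRCm38.p6, from 250 bases before to 50 bases after each start, read 5' to 3' on the strand of the gene. Capitals mark motifs searched on both strands, namely the GC box GGGCGG, the TATA box TATAAA, the E box CACGTG, the E2F site (TTTCCCGC, TTTCGCGC, TTTGCCGC or TTTGGCGC) and a p53 element, which was added after the sequence had been read and was taken as 2 adjoining p53 half-sites of 20 bases in all with intact cores and at most 1 other mismatch. The first Cdkn2a promoter, at chr4:89294570-89294869 on the minus strand, is the upstream one used for p19Arf, and the second, at chr4:89282143-89282442 on the minus strand, is that of p16Ink4a. The Cdkn1a promoters lie at chr17:29090729-29091028 and chr17:29093519-29093818 on the plus strand.
Cdkn2a, upstream start: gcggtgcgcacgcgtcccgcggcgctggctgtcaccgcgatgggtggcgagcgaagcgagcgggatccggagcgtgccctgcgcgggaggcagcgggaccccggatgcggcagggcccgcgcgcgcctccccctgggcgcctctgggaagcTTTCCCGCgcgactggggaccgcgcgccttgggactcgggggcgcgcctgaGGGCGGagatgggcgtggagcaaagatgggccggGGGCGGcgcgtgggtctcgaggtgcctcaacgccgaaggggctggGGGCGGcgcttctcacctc
Cdkn2a, downstream start: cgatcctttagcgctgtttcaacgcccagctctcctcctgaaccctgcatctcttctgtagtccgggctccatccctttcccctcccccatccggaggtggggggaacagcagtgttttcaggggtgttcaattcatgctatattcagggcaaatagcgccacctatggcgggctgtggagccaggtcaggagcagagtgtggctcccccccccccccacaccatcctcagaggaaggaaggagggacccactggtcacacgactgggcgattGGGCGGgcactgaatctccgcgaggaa
Cdkn1a, upstream start: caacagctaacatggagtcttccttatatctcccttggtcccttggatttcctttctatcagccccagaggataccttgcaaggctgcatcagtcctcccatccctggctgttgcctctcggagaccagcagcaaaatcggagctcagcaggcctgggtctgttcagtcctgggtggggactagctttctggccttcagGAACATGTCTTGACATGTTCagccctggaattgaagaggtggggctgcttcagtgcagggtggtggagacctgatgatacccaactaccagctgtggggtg
Cdkn1a, downstream start: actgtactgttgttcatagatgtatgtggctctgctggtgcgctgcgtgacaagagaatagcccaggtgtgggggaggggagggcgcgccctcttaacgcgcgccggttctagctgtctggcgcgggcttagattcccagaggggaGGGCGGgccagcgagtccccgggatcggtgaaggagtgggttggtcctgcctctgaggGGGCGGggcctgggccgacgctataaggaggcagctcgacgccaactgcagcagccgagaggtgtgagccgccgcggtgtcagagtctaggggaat
The upstream Cdkn2a promoter was 77% G and C and held 3 GC boxes and 1 E2F site that begins 99 bases before the start, and the downstream one was 60.3% G and C with 1 GC box. The upstream Cdkn1a promoter held 1 p53 element, which begins 51 bases before that start, and the downstream one held 2 GC boxes. Among 32851 promoters of the same length, 35.7% held a GC box, 13.6% a TATA box, 7.15% an E box, 2.26% an E2F site and 0.0548% (18 promoters) a p53 element. A match of letters describes the sequence only, and binding was not measured.

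Detection was defined as a signal-to-noise ratio of 3 or more with a flag of 5000 or less, the limits named in the methods of the study. Between 13872 and 14855 probes were detected on each array. Signals are the deposited normalized signals, in arbitrary units, and differences are of their log2 values. Over the 11604 probes that all 4 arrays detected, the median difference from B16 was 0.21 in B16-RI, 0.41 in B16-RII and 0.22 in B16-RIIL. The array consists of 2 probe sets whose shifts differed in B16-RI and B16-RIIL and were alike in B16-RII, and differences are therefore also given after the median shift of each set was taken out, here called centred probe sets. All 7 melanocyte markers with a probe, among them Tyrp1, Dct, Pmel and Tyr, were detected on all 4 arrays, and their summed signal ranged from 7493 on B16 to 9413 on B16-RII. None of the 6 macrophage markers and none of the 7 endothelial markers was detected on every array. Their summed signals were 4.27 to 4.99 and 4.16 to 6.49, and Pecam1, at 2.44, was detected on B16-RII and, at 1.02, on B16-RIIL. Of 7 leukocyte markers, Cd79a was detected on every array, while Ptprc and Cd3e were detected on none. Cd52 was detected on B16-RI alone, at 2.22. The summed leukocyte signal was lowest on B16, at 61.3, and highest on B16-RII, at 84.2, and most of it came from Cd79a, at 55.99 and 80.2. Of 6 fibroblast markers, Col1a2 was detected on every array, from 6.32 on B16 and 7.40 on B16-RII to 14.96 on B16-RI and 16.66 on B16-RIIL, whereas Dcn, Col3a1 and Pdgfra were detected on none. Col1a1 was highest on B16, at 3.50, not detected on B16-RI, at 1.36, and at 2.22 and 2.41 on B16-RII and B16-RIIL. The fibroblast markers summed to between 11.8 on B16-RII and 22.2 on B16-RIIL. What part other cell types have in the differences below was not tested.

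The CDK inhibitors of the Cdkn2a locus were at or near the detection limit in every line. Cdkn2a (mCG123699.1 in the file, chromosome 4) had a normalized signal of 0.89 for B16, 1.80 for B16-RI, 2.13 for B16-RII and 0.88 for B16-RIIL. Its signal-to-noise ratio was 2.05, 4.66, 6.36 and 1.94 in the same order, so that it was detected in both lines grown from lymph nodes and neither in the parental nor in the lung line. Cdkn2a was thus at least 2.02-fold higher than B16 in B16-RI and at least 2.39-fold higher in B16-RII. Here and below, at least N-fold marks a fold taken against a signal that was not detected. The noise of that signal is not allowed for, so that the fold is no strict minimum. The differences of Cdkn2a from B16 were 1.02 and 1.26 log2 units. They were 1.01 and 0.83 with centred probe sets and 0.88 and 0.74 with scaling to the 75th percentile. The position of Cdkn2a beyond 2-fold thus depended on the scaling. Whether the probe reads the p16Ink4a transcript, the p19Arf transcript or both is not known here. Cdkn2b (mCG14135.2, chromosome 4) had signals of 0.55, 0.56, 0.43 and 0.49 and signal-to-noise ratios of -0.85, -0.83, -0.97 and -0.07. It was detected on no array, as were 43.4% of all probes, and no fold is given for it.

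Rb1 (mCG10569.2, chromosome 14) was measured at 0.60 on B16, 2.97 on B16-RI, 3.55 on B16-RII and 0.68 on B16-RIIL. It was detected on the same 2 arrays as Cdkn2a, with signal-to-noise ratios of -1.14, 4.25, 5.25 and 1.23. The signals of both lymph node lines thus lay apart from those of the parental and the lung line. Rb1 was at least 4.95-fold higher than B16 in B16-RI and at least 5.92-fold higher in B16-RII, which is 2.31 and 2.56 log2 units, or 1.91 and 2.14 with centred probe sets. On B16-RIIL it was at least 4.37-fold lower than on B16-RI and at least 5.22-fold lower than on B16-RII. The spot on B16-RII carried a flag of 64, within the limit, and the other spots had flags of 0 or 1. Detection on B16-RI and B16-RII together with no detection on B16 and B16-RIIL was found for 210 probes, 0.636% of the array. At a signal-to-noise limit of 5 neither Cdkn2a nor Rb1 was detected on B16-RI, while both still were on B16-RII, and the detection in B16-RI therefore rests on the limit chosen.

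**Figure D1:**
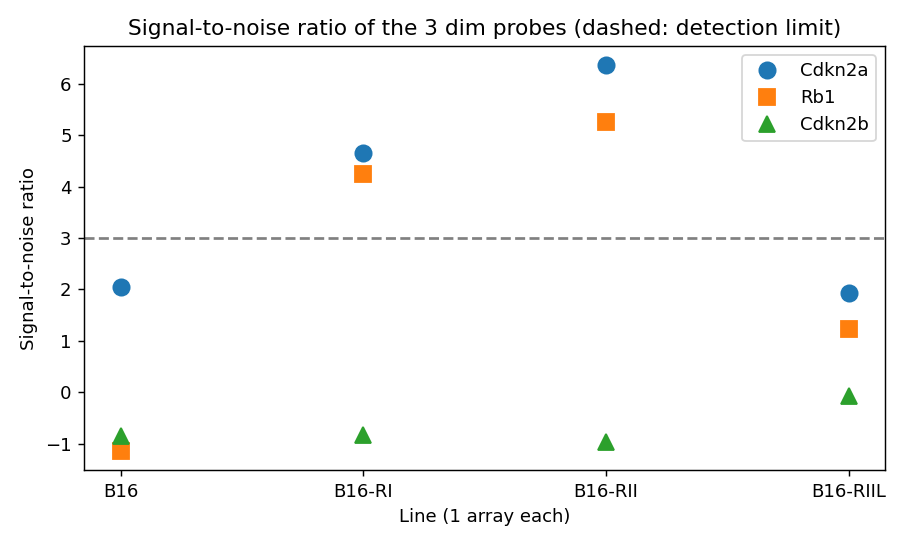
Signal-to-noise ratio (vertical axis) of the Cdkn2a, Rb1 and Cdkn2b probes on the array of each line (horizontal axis), with the detection limit of 3 as a dashed line. Cdkn2a and Rb1 lie above the line on B16-RI and B16-RII, between 4.25 and 6.36, and below it on B16 and B16-RIIL, whereas Cdkn2b lies below it on all 4 arrays.

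Cdkn1a, the gene of p21, was the member with the widest range among those detected on every array. Its probe (mCG126433.1, chromosome 17) gave 31.3 on B16, 29.8 on B16-RI, 38.0 on B16-RII and 79.3 on B16-RIIL, with signal-to-noise ratios of 46.3 or more. The lung line was the highest, and the other three lines lay close together. In B16-RIIL Cdkn1a was 2.53-fold higher than in B16, 2.67-fold higher than in B16-RI and 2.09-fold higher than in B16-RII. On the log2 scale the differences from the 3 lines were 1.34, 1.41 and 1.06. With centred probe sets they were 0.82, 1.29 and 0.97, and with quantile normalization 1.07, 1.40 and 1.11. The lung line was the highest under each scaling, but the difference from B16 was under 1 log2 unit when the probe sets were centred, and that from B16-RII was so with centred probe sets and with median scaling, at 0.96. Among 12561 probes detected on both the B16-RIIL and the B16 array, the difference of Cdkn1a stood at percentile 98.1, or 96.6 with centred probe sets. In B16-RI and B16-RII the difference of Cdkn1a from B16 was -0.07 and 0.28 log2 units, and with centred probe sets -0.47 and -0.15.

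Trp53 itself (mCG20908.1, chromosome 11) had signals of 17.1 for B16, 17.3 for B16-RI, 28.4 for B16-RII and 15.5 for B16-RIIL, and was detected on each array with a signal-to-noise ratio of at least 29.4. B16-RII was the highest. It was 1.66-fold above B16, or 0.73 log2 units, which became 0.31 with centred probe sets and 0.12 with quantile normalization. This difference was under the 2-fold limit under each scaling. The highest Trp53 signal and the highest Cdkn1a signal were thus on different arrays. Mdm2 (mCG3393.2, chromosome 10) had signals of 7.02, 8.25, 9.66 and 8.42 in the order B16, B16-RI, B16-RII and B16-RIIL. The differences of Mdm2 from B16 were 0.23, 0.46 and 0.26 log2 units, close to the medians of all probes detected on every array, and 0.23, 0.04 and 0.25 with centred probe sets. The value for B16-RII was -0.06 with quantile normalization. In B16-RIIL, where Cdkn1a was 2.53-fold above B16, Mdm2, the other p53 target among the members, was 1.20-fold above it.

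Nras (mCG6411.1, chromosome 3) had signals of 27.3 for B16, 32.6 for B16-RI, 34.2 for B16-RII and 22.6 for B16-RIIL. Its lowest signal was in the lung line, 1.45-fold lower than in B16-RI and 1.52-fold lower than in B16-RII. The difference of Nras from B16 was 0.26, 0.33 and -0.28 log2 units in B16-RI, B16-RII and B16-RIIL. The value for B16-RII turned negative, to -0.10 and -0.32, with centred probe sets and with quantile normalization, while the sign in B16-RIIL was negative under each scaling.

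Myc (mCG1625.1, chromosome 15) had signals of 123 for B16, 133 for B16-RI, 107 for B16-RII and 238 for B16-RIIL. As for Cdkn1a, the lung line was the highest and the other three were close to each other. Myc in B16-RIIL was 1.93-fold above B16, just inside the 2-fold limit at 0.95 log2 units, 1.79-fold above B16-RI and 2.23-fold above B16-RII. The difference between B16-RIIL and B16-RII was 1.16 log2 units, at percentile 99.3 of 13018 probes detected on both arrays, and lay between 1.06 and 1.29 under the other scalings. The difference from B16 was more variable, from 0.43 with centred probe sets to 1.00 with median scaling. In B16-RII the difference of Myc from B16 was -0.21 log2 units, and with centred probe sets -0.63. In B16-RI it was 0.11, and -0.29 with centred probe sets, a change of sign.

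**Figure D2:**
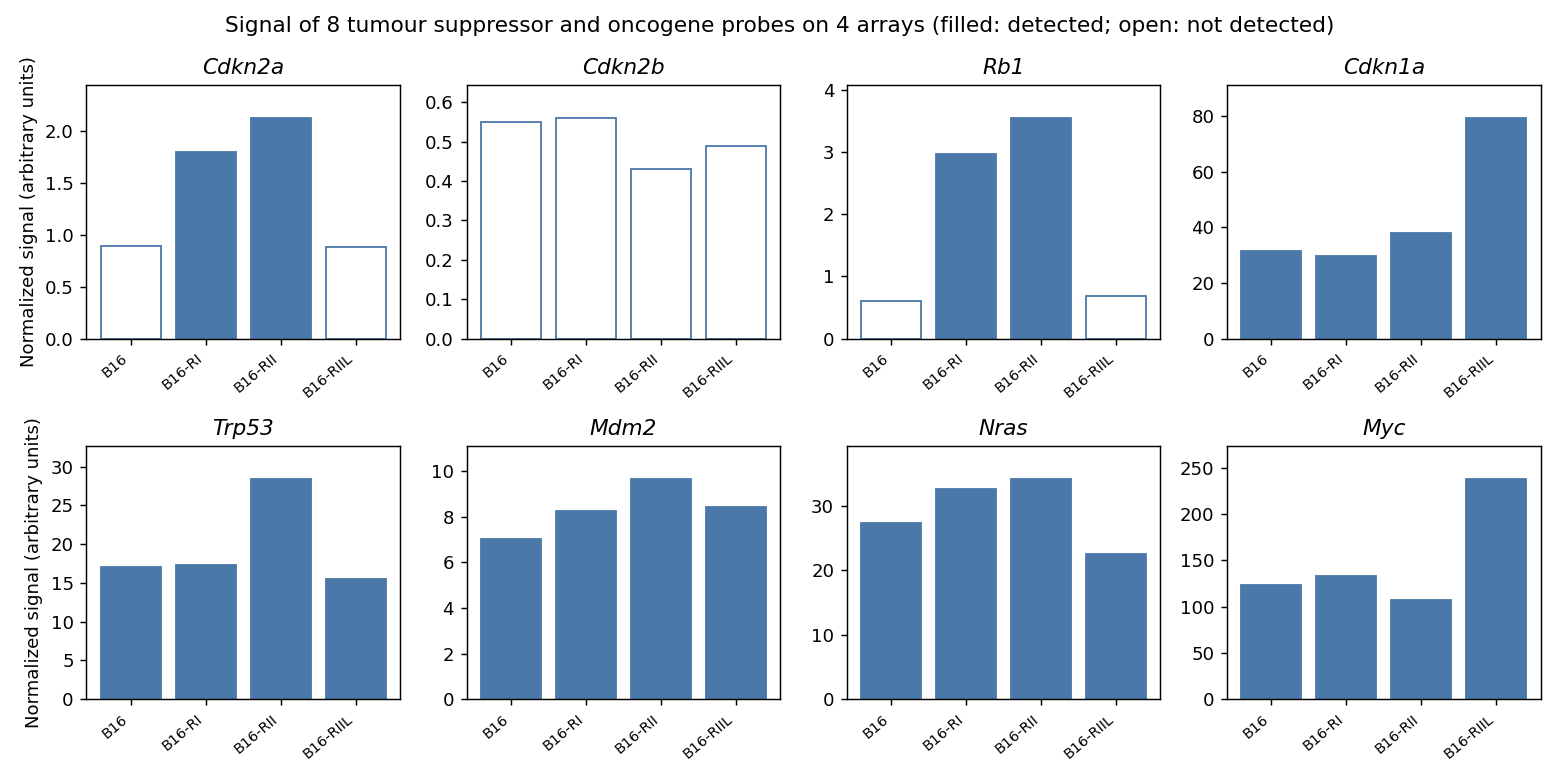
Normalized signal (vertical axis, arbitrary units, from 0, a scale of its own in each panel) of the 8 genes on the array of each line (horizontal axis), with filled bars for detected and open bars for not detected signals. Cdkn1a and Myc are highest in B16-RIIL at 79.3 and 238, Cdkn2a and Rb1 are detected in B16-RI and B16-RII, and Trp53 is highest in B16-RII at 28.4.

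Over the 8 probes, 5 were detected on every array (Trp53, Cdkn1a, Mdm2, Nras and Myc), 2 on 2 arrays each (Cdkn2a and Rb1) and 1 on none (Cdkn2b). A probe at least 2-fold from B16 and detected on the brighter array was counted as higher or lower. In B16-RI 2 of 8 were higher, Cdkn2a and Rb1, where 4.95% of all probes were higher, or 6.57% of those not detected on B16. In B16-RII the same 2 of 8 were higher, against 6.51% of all probes and 7% of those not detected on B16. In B16-RIIL 1 of 8 was higher, Cdkn1a, against 6.42% of all probes. None of the 8 was lower than B16 in any line, a count of 0 where 4.55%, 3.79% and 4.25% of all probes were lower in B16-RI, B16-RII and B16-RIIL. The median difference of the 8 probes from B16 was 0.17, 0.39 and 0.08 log2 units in these lines, beside 0.17, 0.21 and 0.07 for all 33012 probes. For the 5 detected on every array it was 0.11, 0.33 and 0.26, beside 0.21, 0.41 and 0.22 for all 11604 such probes. The counts rest on 1, 2 or 0 genes at a time and on single arrays.

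Setting the passaged lines against each other leaves the B16 array out. Between B16-RII and B16-RI, 0 of 8 genes were at least 2-fold apart, where 4.93% of all probes were higher in B16-RII and 3.27% lower. In B16-RIIL against B16-RI, Cdkn1a was higher (5.43% of all probes were) and Cdkn2a and Rb1 were lower (4.07%). In B16-RIIL against B16-RII, Cdkn1a and Myc were higher (3.85% of all probes) and Cdkn2a and Rb1 were lower (4.73%). For Cdkn2a these differences were at least 2.05-fold and 2.42-fold, against a signal that was not detected on B16-RIIL. Its difference between B16-RIIL and B16-RI, -1.03 log2 units, came to -0.997 after quantile normalization and -0.99 after median scaling, just under the limit. With centred probe sets the Cdkn2a difference between B16-RIIL and B16-RII was -0.86 log2 units, under the limit, as was that of Cdkn1a at 0.97.

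**Figure D3:**
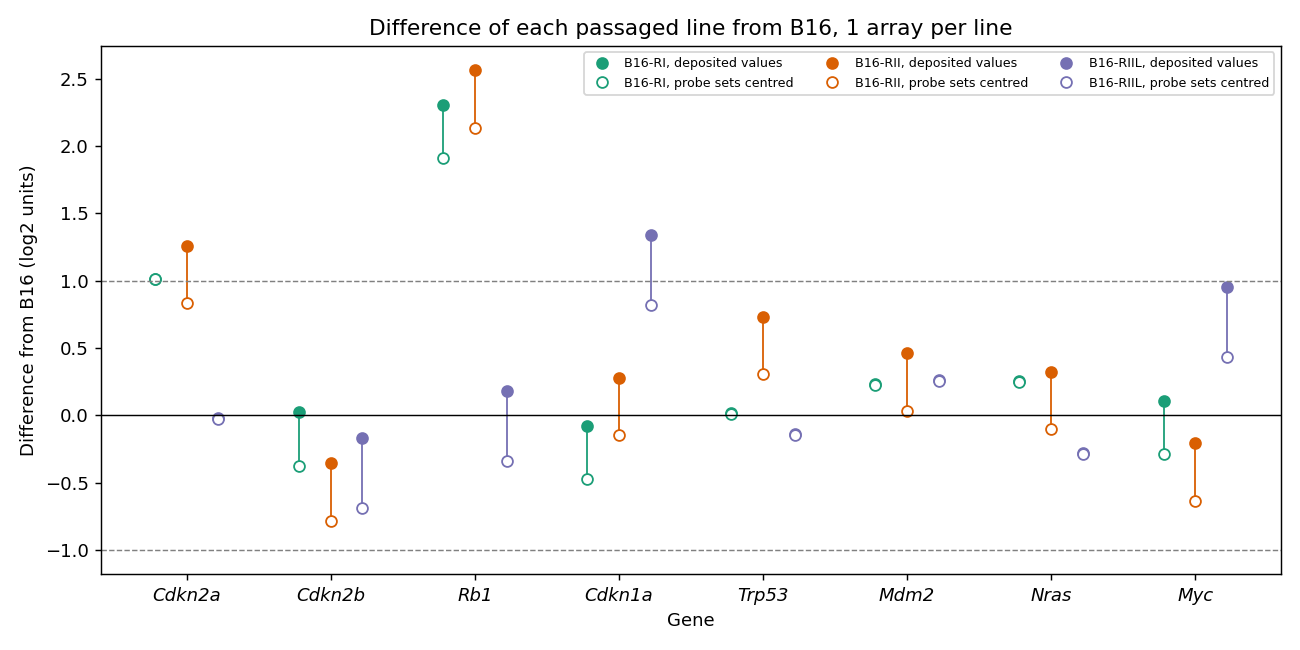
Difference of each passaged line from B16 in log2 units (vertical axis) for each gene (horizontal axis), with filled points for the deposited values, open points with each probe set centred, and dashed lines at 1 unit in either direction. Rb1 lies above 1 unit in B16-RI and B16-RII with both, while Cdkn1a in B16-RIIL lies at 1.34 and 0.82.

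The pathways to which these genes belong were described with 11 lists of 181 genes in all, of which 165 had a named probe, 1 probe per gene being used. Of the 165 genes, 9 were higher and 3 lower than B16 in B16-RI, 17 higher and 3 lower in B16-RII, and 23 higher and 5 lower in B16-RIIL. The shares higher were 5.45%, 10.3% and 13.9%, where 4.65%, 7.4% and 7.14% of all 14686 genes were higher, and the shares lower were 1.82%, 1.82% and 3.03%, where 4.11%, 3.25% and 3.55% of all genes were lower. After centring of the probe sets, 6 were higher and 6 lower in B16-RI, 6 and 7 in B16-RII, and 8 and 7 in B16-RIIL, and with quantile normalization 6 and 6, 12 and 5, and 12 and 7. Median scaling gave 5 and 4, 24 and 3, and 24 and 5, and scaling to the 75th percentile 4 and 6, 7 and 5, and 9 and 7. The surplus of higher genes thus stayed in B16-RII and B16-RIIL under median scaling and was smaller or absent under the other scalings. Over all probes detected on every array, median scaling left a median difference from B16 of 0.39 in B16-RII and 0.25 in B16-RIIL. These medians were -0.01 and -0.01 with quantile normalization, 0.06 and 0.02 with the 75th percentile, and -0.01 and -0.04 with centred probe sets. Shares of all genes are given for the deposited values only, here and below.

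Among 30 measured p53 target genes, 0 were higher and 0 lower in B16-RI, 1 was higher in B16-RII (Rrm2b, the p53-inducible ribonucleotide reductase subunit, 2.37-fold), and 6, Cdkn1a among them, were higher and 2 lower in B16-RIIL. Of all 14686 genes, 4.65%, 7.4% and 7.14% were higher and 4.11%, 3.25% and 3.55% lower in B16-RI, B16-RII and B16-RIIL. Cyclin G1 (Ccng1) had signals of 96.5 for B16, 152 for B16-RI, 154 for B16-RII and 216 for B16-RIIL, 2.24-fold above B16 in the lung line. Btg2, an antiproliferative p53 target, was detected on each array at 2.36, 1.25, 1.44 and 1.05, and was 2.25-fold lower in B16-RIIL. In B16-RIIL 1 of the 30 was higher and 3 were lower with centred probe sets, and in B16-RII 0 were higher and 1 lower. Under that scaling the differences of Ccng1 in B16-RIIL and Rrm2b in B16-RII were 0.64 and 0.82 log2 units, while that of Btg2 in B16-RIIL was -1.18. The median of the 22 p53 targets detected on every array was 0.18, 0.46 and 0.42 log2 units above B16 in B16-RI, B16-RII and B16-RIIL, and 0.10, 0.04 and 0.20 with centred probe sets. Of 16 measured p53 regulators, 1 was beyond 2-fold in any line, where 19.8% of all genes were, the acetyltransferase gene Kat5, 2.04-fold higher in B16-RI at signals of 15.7 on B16 and 31.9 on B16-RI. Its difference was 1.03 log2 units, and 0.63 with centred probe sets. Under that scaling another regulator, the checkpoint kinase gene Chek2, was lower in B16-RI, at -1.01 log2 units against -0.61 in the deposited values. Dimmer probes of 3 regulators were not counted, and their detection is not given here. That of Trp53bp1 was 2.14 log2 units above B16 in B16-RII. That of Cop1 was 1.10 above it in B16-RI and 1.25 in B16-RIIL, and that of Rpl11 1.33 in B16-RII and 1.08 in B16-RIIL.

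Of the CDK inhibitors, 5 of 7 measured genes were beyond 2-fold in at least 1 line, Cdkn1a and Cdkn2a among them, where 19.8% of all 14686 genes were. The count was 4 of 7 with centred probe sets. Cdkn1b, the gene of p27, was not detected on B16, at 0.86, and was at 1.74 on B16-RI, 3.75 on B16-RII and 1.76 on B16-RIIL. B16-RI exceeded B16 by at least 2.02-fold, B16-RII by at least 4.36-fold and B16-RIIL by at least 2.05-fold. The signal-to-noise ratio of Cdkn1b was 3.13, 9.91 and 3.02 on these arrays, so that detection on B16-RI and B16-RIIL rests on the limit chosen. Its differences from B16 were 1.02, 2.12 and 1.03 log2 units, just over the 2-fold limit in B16-RI and B16-RIIL. Cdkn2c, the gene of p18Ink4c, took the opposite course, detected on B16 at 2.89 and on no passaged array (0.70, 1.22 and 0.69), at least 4.13-fold, 2.37-fold and 4.19-fold lower. Cdkn1c, the gene of p57, was 2.92-fold higher in B16-RIIL, at 6.40 against 2.19 on B16. It was not detected on B16-RI and B16-RII, at 1.25 and 1.42, and its differences there, -0.81 and -0.63 log2 units, were -1.21 and -1.05 with centred probe sets. Each of these 3 genes had signals of at most 6.40 and was undetected on at least 1 array.

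In the cyclin D and Rb circuit, 8 of 19 measured genes, Rb1 included, were beyond 2-fold in at least 1 line, where 19.8% of all genes were. With centred probe sets the count was 4 of 19, and no share of all genes is given for that scaling. Cdk6, a kinase that p16Ink4a inhibits, was detected on B16 at 4.02 and was at least 4.37-fold lower in B16-RI and at least 2.56-fold lower in B16-RII, and in B16-RIIL, where it was detected at 1.64, it was 2.45-fold lower. Cdk2, the partner of cyclin E, was at 3.97 on B16, not detected at 0.50 on B16-RI, at 2.32 on B16-RII and not detected at 1.23 on B16-RIIL. The repressor gene E2f7 was not detected on B16 and was at least 2.25-fold higher in B16-RI and at least 2.84-fold higher in B16-RII, where the value for B16-RI was 0.77 log2 units with centred probe sets. Of 20 E2F target genes, 1, 3 and 3 were higher in B16-RI, B16-RII and B16-RIIL and 0 were lower in any line. Of all genes 4.65%, 7.4% and 7.14% were higher and 4.11%, 3.25% and 3.55% lower. The counts of higher E2F targets were 1, 0 and 1 with centred probe sets. Rrm2, the ribonucleotide reductase subunit of dividing cells, was at 154 on B16 and at 254, 331 and 312 on the passaged arrays, 2.15-fold higher in B16-RII and 2.03-fold in B16-RIIL. Pola1, a DNA polymerase subunit gene, was detected only on B16-RIIL, at least 3.43-fold above B16. Tyms, the gene of thymidylate synthase, was at least 2.19-fold higher in B16-RI, and Cdc6, a replication licensing gene, was 2.06-fold higher in B16-RII. Centring of the probe sets left 0.68 and 0.50 log2 units for Rrm2 and 0.61 for Cdc6, all under the limit. The 17 E2F targets detected on every array had a median of 0.50, 0.77 and 0.21 log2 units above B16, and 0.27, 0.34 and -0.11 with centred probe sets.

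**Figure D4:**
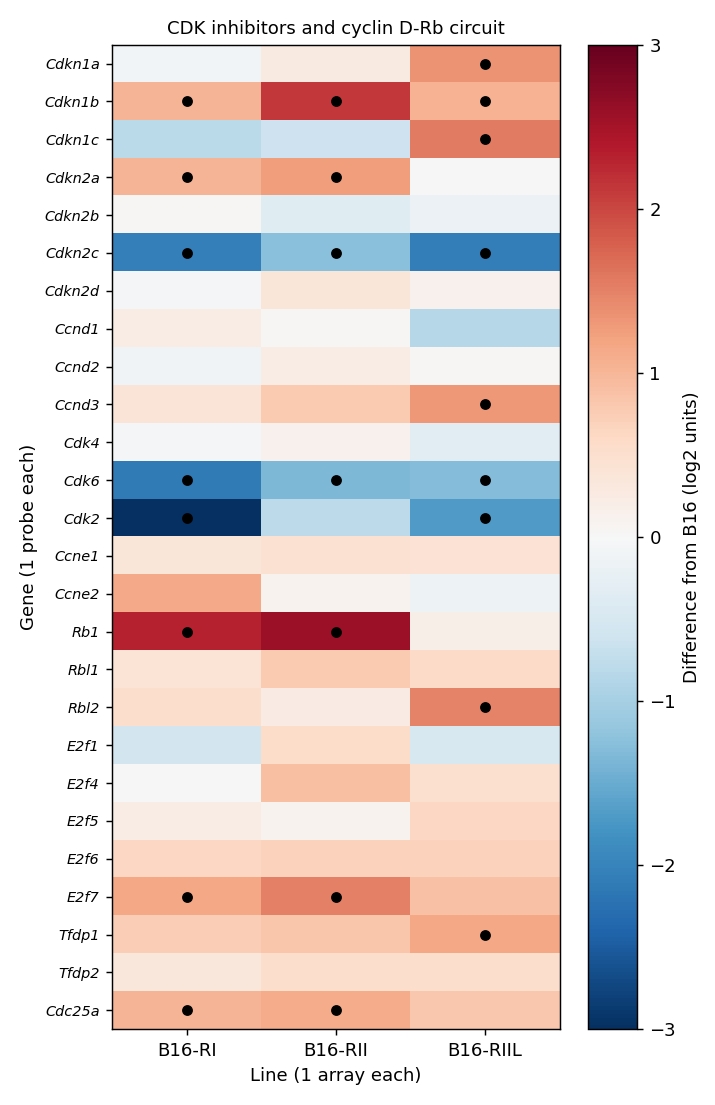
Difference from B16 in log2 units (colour) of the measured CDK inhibitors and genes of the cyclin D and Rb circuit (rows, 1 probe each) in each passaged line (columns), with the measured difference also where a signal was not detected and a black dot where the gene was at least 2-fold from B16 and detected on the brighter array. Cdkn1b carries dots for a higher signal and Cdkn2c and Cdk6 for a lower signal in all 3 lines.

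Around Nras, 4 of 17 measured genes of the Ras and Raf core were beyond 2-fold in at least 1 line, each of them higher, beside 19.8% of all genes in either direction. After centring of the probe sets 3 of the 17 were, Sos1 and Ksr1, which were higher, and Nf1, the gene of the Ras inhibitor neurofibromin, which was lower. Nf1, named after its values were seen, was detected on B16 alone, at 1.22, and its differences of -0.91, -0.72 and -0.59 log2 units in B16-RI, B16-RII and B16-RIIL were -1.31, -1.15 and -1.11 with centred probe sets. The Ras exchange factor gene Sos1 had signals of 5.95 for B16, 16.6 for B16-RI, 15.1 for B16-RII and 9.22 for B16-RIIL. It was 2.79-fold higher in B16-RI and 2.54-fold higher in B16-RII, and the value for B16-RII became 0.92 log2 units with centred probe sets. The Ras relative Mras was 2.45-fold higher in B16-RII and the kinase gene Mapk3 2.24-fold higher in B16-RIIL, while Ksr1, a scaffold of the cascade, was detected on B16-RIIL alone, at least 3.97-fold above B16. The differences of Mras and Mapk3 were 0.87 and 0.65 log2 units with centred probe sets, under the limit. Among genes of the PI3-kinase pathway, the regulatory subunit gene Pik3r1 was at least 2.84-fold higher in B16-RII and 4.58-fold in B16-RIIL, Tsc2 was at least 3.34-fold higher in B16-RIIL, and the catalytic subunit gene Pik3cb was at least 2.82-fold lower in B16-RII. Pik3r1 and Tsc2 were not detected on B16.

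Of 13 measured genes of the Myc network, 2 were beyond 2-fold in at least 1 line, where 19.8% of all genes were, namely the Myc antagonist genes Mxd4, 2.07-fold higher in B16-RIIL, and Mxi1, at least 2.06-fold higher in B16-RII. Their differences were 0.53 and 0.61 log2 units with centred probe sets, and 0 of the 13 genes were then beyond 2-fold. Another probe for Mxd4 differed from B16 by -0.09 log2 units in B16-RIIL. Mycn and Mycl were detected on no array, so that of the 3 Myc paralogues only Myc was detected. Of 18 Myc target genes, all detected on every array, Nop56, a nucleolar protein gene, was higher in each line, at 4.05 on B16 and 12.3, 12.6 and 9.12 on the passaged arrays, or 3.04-fold, 3.12-fold and 2.25-fold. With centred probe sets its difference was 1.21, 1.21 and 0.65 log2 units. The transferrin receptor gene Tfrc was 3.49-fold higher in B16-RII. In B16-RIIL, the line with the highest Myc signal, 1 of the 18 targets was higher, where 7.14% of all genes were, and 0 were lower, where 3.55% were. Their median was 0.34 log2 units above B16, against 0.42 in B16-RI and 0.59 in B16-RII. With centred probe sets these medians were 0.04, 0.24 and 0.16.

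Of the genes beside Cdkn2a on chromosome 4, Mtap, the neighbour that is often lost together with CDKN2A in human tumours, was detected on every array at 250 on B16, 246 on B16-RI, 281 on B16-RII and 174 on B16-RIIL, and Klhl9 at 3.40, 3.92, 5.77 and 4.93. Dmrta1 and Elavl2 were detected on no array. Among 15 other genes mutated or active in melanoma, 5 were beyond 2-fold in at least 1 line, where 19.8% of all genes were. With centred probe sets the count was 1 of 15. Kit, the stem cell factor receptor, was 3.73-fold higher in B16-RIIL, at 19.3 against 5.16 on B16. The difference of Kit was 1.90 log2 units, or 1.38 with centred probe sets. The telomerase gene Tert and the G protein gene Gnaq were detected on B16-RII alone, at least 2.57-fold and 2.09-fold above B16. The signal-to-noise ratio of Tert on B16-RII was 3.03, just over the limit. That of Gnaq was 5.47 there, and 2.52 on B16 and 2.71 on B16-RIIL, just under it. The melanocortin receptor gene Mc1r was 2.16-fold higher in B16-RIIL. With centred probe sets the differences of Tert, Gnaq and Mc1r were 0.94, 0.63 and 0.59 log2 units, under the limit.

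The probes with the pattern most like that of Cdkn1a were sought among 8064 probes with a symbol that were detected on every array, by the root mean square difference of log2 signals over the 4 arrays after each probe was centred on its own mean. The nearest were Mc1r, with a difference of 0.087 log2 units, BC024561 with 0.097 and Herpud1, a gene of the endoplasmic reticulum stress response, with 0.11. Mc1r had signals of 27.0, 24.3, 29.3 and 58.2 in the order B16, B16-RI, B16-RII and B16-RIIL, and Herpud1 had 51.0, 38.9, 54.3 and 117. Likeness over 4 arrays describes these arrays and carries no test.

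**Figure D5:**
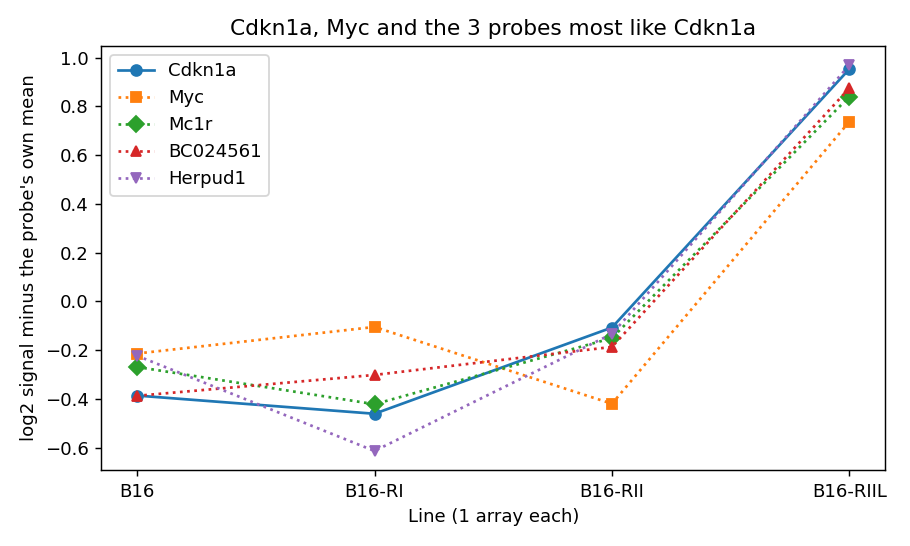
log2 signal minus the mean of the same probe over the 4 arrays (vertical axis) for Cdkn1a, Myc and the 3 probes most like Cdkn1a on the array of each line (horizontal axis). All 5 probes are highest on B16-RIIL, and Myc, unlike the others, is lowest on B16-RII.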

How the data were processed

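RNA of the lines B16, B16-RI, B16-RII and B16-RIIL was measured on chemiluminescence arrays, of which 1 per line was analysed. The deposited table holds, per the file headers, a raw signal intensity, a normalized signal intensity, and a signal-to-noise ratio and flag, which are scores of the analyzer. In the normalized intensity of the authors, each raw value had been divided by a constant, and each array had 2 constants, for sets of 16524 and 16488 probes. Quantile normalization, which the study's methods name, was run as an alternative. A further 30 columns (20 of values and 10 of ratios) belong to second arrays that no label names and were left unused, as were 14 columns that the authors derived from the arrays analysed, namely log2 values and ratios between lines.

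Signals were analysed as log2 of the deposited normalized intensity, without a pseudocount, over all 33012 probes. Of 17302 probes with a symbol, 16185 were named through the RefSeq table of GRCm38.p6. No genome build is given in the sources used here for the probes, so the coordinates belong to the RefSeq promoters. Where 1 side was not detected, the fold was taken against its own signal or, if that was higher, the lowest signal detected there, and it is written as at least N-fold. The noise of the undetected signal is not allowed for, so that such a fold is no strict minimum. Members and lists were chosen with earlier results of these data known. From each list, the up to 4 genes with the largest difference and every gene beyond 2-fold in all 3 lines in 1 direction are named. The 3 probes most like the member with the widest range among those detected on every array are named too, and genes of the marker and neighbour lists, with Mycn and Mycl, are named to describe detection. A gene was represented by its brightest probe. Comparisons between passaged lines were added after the values were seen. The call rule was tested on simulated data. Alternatives were quantile normalization, median and 75th percentile scaling, centred probe sets, detection at a signal-to-noise ratio of 5, on both arrays or not at all, limits of 1.5-fold and 4-fold, and another probe per gene. Calculations used Python 3.11.15, numpy 2.4.6, pandas 2.3.3 and matplotlib 3.10.9. Precision is limited by having 1 array per line. Values of some listed genes are not reported here.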

Additional observations from a re-analysis of the deposited data

How the results depend on the processing

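No paired analysis was possible because 1 array per line was analysed, which also leaves no replicate to omit. Of 27 alternative counts of the 8 genes above B16, 13 moved by over 1.5 times, while the 27 counts below B16 were 0 throughout. Of 35 alternative counts of pathway genes, 15 moved by over 1.5 times. Of 24 differences from B16 between 17 and 22 kept their sign under the other scalings. Reasons were not tested unless the alternative's construction gives them.

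Of the 8 genes, 2 were higher than B16 in B16-RI. The count was 1 (Rb1) under scaling to the median or the 75th percentile, as with a 4-fold limit, and 0 with a signal-to-noise ratio of 5, which Cdkn2a and Rb1 did not reach on B16-RI, or with detection on both arrays, since neither was detected on B16. In B16-RII the count of 2 became 1 with 75th percentile scaling, centred probe sets or a 4-fold limit, and 0 with detection on both arrays. In B16-RIIL the count of 1 became 2 with median scaling or a 1.5-fold limit, where Myc joined Cdkn1a, and 0 with centred probe sets or a 4-fold limit.

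Of the 165 pathway genes, 43 were beyond 2-fold in at least 1 line, where 19.8% of all 14686 genes were. The count was 24 with 75th percentile scaling and 24 with centred probe sets, for which no share of all genes is given. Genes higher than B16 in B16-RI were 9, and 5 with median and 4 with 75th percentile scaling, and genes lower were 3, and 6 with quantile normalization, 75th percentile scaling or centred probe sets. In B16-RII, 17 higher genes became 7 with 75th percentile scaling and 6 with centred probe sets, and 3 lower genes became 5 with quantile normalization, 5 with 75th percentile scaling and 7 with centred probe sets. In B16-RIIL, 23 higher genes became 12 with quantile normalization, 9 with 75th percentile scaling and 8 with centred probe sets. Signal over background limits Cdkn2a, Cdkn2b and Rb1, whose folds rest on signals below the detection limit or cannot be given.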
